A study of Mus musculus with 12 samples.

Results

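The genes of heart muscle described here were followed array by array in lungs of the inbred A/J mouse strain. They are Myh6, Actc1, Myl4, Myl7, Tnnt2, Tnni3, Tnnc1, Nppa, Sln and Ryr2, which are 10 of the 8251 genes named on the array, and the platform annotation gives these symbols to 12 of its 12422 probe sets, all of which were read. The genes were chosen because their readings differ between arrays of the same tissue, so their levels by array are a description and carry no test. RNA was measured on 12 Affymetrix MG_U74Av2 arrays, 1 for each sample. All samples were normal lung tissue of control mice that had received saline and no other agent. The 7 later samples, LZ22 to LZ25 and LZ61 to LZ63, were taken 42 weeks after the injection, and the 5 earlier samples, AJ1, AJ2, AJ4, LZ2 and LZ3, were taken 24 to 26 weeks after it. The labels do not say whether each sample came from its own animal. A p-value here therefore weighs a difference only against the scatter among these samples, which may be technical.

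Heart muscle cells contract through a sarcomere in which myosin, made of heavy and light chains, pulls on actin, while the troponin complex lets this happen only when calcium is released inside the cell. The atria and the ventricles build this machine from partly different light chains, and the atria also make a natriuretic hormone. In mice, cardiac muscle of the atrial kind continues from the left atrium into the wall of the pulmonary veins and reaches into the lung, so that lung samples can hold it without any heart being included. Whether the readings described here came from vein walls or from atrial tissue left on the lung was not tested.

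Signals are the deposited linear values, which share a scale across arrays, and a signal of 108 (the level at the 40th percentile of mean signals, under which probe sets were not tested) serves below as the limit of dim readings. Levels of different probe sets are not compared with each other, because each probe set has its own brightness. By the run records the arrays were run on 4 days, which held LZ22, LZ23, LZ24 and LZ25, then LZ61, LZ62 and LZ63, then AJ1, AJ2 and AJ4, and then LZ2 and LZ3 (listed in no order of date), so that each day held a single time point. LZ63 stands apart from the other arrays in genes of skeletal muscle and squamous epithelium, with Acta1, the skeletal actin, at 20112 and Krt4, a keratin of squamous epithelium, at 19799, against at most 481.1 and 384.0 on the other arrays. Values are therefore also given without it where they rest on it.

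Promoters of 9 of the 10 genes were found in a RefSeq table (GRCm38.p6), each as 250 bases before to 50 bases after a start site. The following are shown because Myh6 and Myl7 read under or near 108 on LZ22 and LZ24, the arrays that nearly lacked the cardiac signal, whereas Nppa and Actc1 read above it on both. Each is written 5′ to 3′ on the strand of its gene. Capitals mark letters that match a motif on either strand, namely the GATA box (GATAA), the TATA box (TATAAA), the core of the NKX2-5 site (AAGTG), the MCAT core (CATTCC), the CArG box bound by serum response factor, and the MEF2 site. A match is a description of the letters and not a shown binding site.
Myh6, chr14:54966558-54966857, minus strand: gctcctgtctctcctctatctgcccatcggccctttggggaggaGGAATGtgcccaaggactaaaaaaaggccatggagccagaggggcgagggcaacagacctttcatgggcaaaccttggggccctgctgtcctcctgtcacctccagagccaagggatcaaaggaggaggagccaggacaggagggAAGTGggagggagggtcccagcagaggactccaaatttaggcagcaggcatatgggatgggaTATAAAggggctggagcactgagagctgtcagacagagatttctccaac
Myl7, chr11:5898733-5899032, minus strand: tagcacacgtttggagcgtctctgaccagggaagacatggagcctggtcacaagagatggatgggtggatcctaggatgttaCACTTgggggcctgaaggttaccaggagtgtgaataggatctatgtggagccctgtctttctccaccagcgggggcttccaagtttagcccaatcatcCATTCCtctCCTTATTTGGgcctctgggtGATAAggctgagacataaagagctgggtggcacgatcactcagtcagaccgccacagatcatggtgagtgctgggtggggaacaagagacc
Nppa, chr4:148000472-148000771, plus strand: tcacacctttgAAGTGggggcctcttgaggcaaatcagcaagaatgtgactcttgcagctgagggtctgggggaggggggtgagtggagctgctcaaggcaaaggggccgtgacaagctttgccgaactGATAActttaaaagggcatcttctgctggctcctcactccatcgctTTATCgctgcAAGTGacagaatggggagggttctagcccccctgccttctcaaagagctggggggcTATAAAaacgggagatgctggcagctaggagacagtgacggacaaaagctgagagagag
Actc1, chr2:114052826-114053125, minus strand: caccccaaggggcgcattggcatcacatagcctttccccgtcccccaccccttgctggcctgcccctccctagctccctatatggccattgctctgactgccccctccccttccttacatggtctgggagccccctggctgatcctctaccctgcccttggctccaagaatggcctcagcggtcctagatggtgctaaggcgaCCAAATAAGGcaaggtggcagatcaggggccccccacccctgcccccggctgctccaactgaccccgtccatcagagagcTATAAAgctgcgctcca

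Over the 10 promoter windows of the 9 genes, 2 held a CArG box, against 1.63% of all 32851 promoters of the same length. These were the windows of Myl7 (61 bases before the listed start site) and Actc1 (47 bases before it). In Actc1 a TATA box began 33 bases after the listed start site, so such distances refer to listed sites only. A GATA box was present in 4 windows, those of Myl7, Nppa, Tnni3 and 1 of the 2 Tnnt2 windows, against 25.41% of all promoters. The MCAT core was present in 4 (Myh6, Myl7, Tnnc1 and Tnnt2), against 14.66%, the TATA box in 3 (Actc1, Myh6 and Nppa), against 13.62%, and the NKX2-5 core in 4 (Myh6, Myl4, Myl7 and Nppa), against 46.38%. The MEF2 site was found in 0 of the 10 windows, against 3.19% of all promoters. Nppa and Myl7 both held GATA and NKX2-5 letters, which are common among all promoters. Whether any of these letters bear on the readings was not tested. The genes lie on different chromosomes for the most part, with Myl4 and Myl7 on chromosome 11 and Myh6 and Tnnc1 on chromosome 14.

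Myl7, the atrial regulatory light chain of myosin, read 42.7 on LZ22, 4613 on LZ23, 109.1 on LZ24, 6030 on LZ25, 8109 on LZ61, 2119 on LZ62 and 11082 on LZ63 at 42 weeks. At 24 to 26 weeks it read 4404 on AJ1, 3624 on AJ2, 3909 on AJ4, 2145 on LZ2 and 5923 on LZ3. Its probe set thus lay among the brightest of the array in 10 samples, between the 93.1 and the 99.3 percentile of all probe sets, and at the 25.7 percentile on LZ22 and the 40.4 percentile on LZ24. The lowest of those 10 arrays was at least 19.6-fold brighter than LZ22, taking 108 as the lowest level that LZ22 can be read at, and 19.4-fold brighter than LZ24. The arrays LZ23 and LZ25, of the same run day, were among the bright ones.

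Myl4, the atrial essential light chain, read 130.1 on LZ22, 76.2 on LZ24 and 1189 to 8807 on the remaining 5 arrays at 42 weeks, against 1781 to 4129 at 24 to 26 weeks. Relative to its own median over the 12 arrays it lay at -4.36 on LZ22 and, with its dim reading set at 108, at -4.63 or lower on LZ24 (log2). Another Myl4 probe set gave a much flatter course, from 162.6 on LZ22 to 514.2 on LZ61 at 42 weeks, against 314.8 to 414.3 at 24 to 26 weeks, and it read 230.8 on LZ63, where the brighter Myl4 probe set was highest. The probe sets thus disagree on the size of the difference between arrays, and on LZ63 also on its direction.

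Myh6, the alpha myosin heavy chain, is made in the atria and, in adult mice, in the ventricles as well. It read 6.6 on LZ22, 1299.7 on LZ23, 45.3 on LZ24, 1606 on LZ25, 2217 on LZ61, 754.7 on LZ62 and 4335 on LZ63 at 42 weeks. At 24 to 26 weeks it read 1289.5 on AJ1, 923.8 on AJ2, 954.1 on AJ4, 732.0 on LZ2 and 1678 on LZ3. LZ22 and LZ24 lay at the 6.61 and the 26.2 percentile of their arrays, where dim values have no order, and the lowest of the other 10 arrays was at least 6.78-fold brighter than either of them.

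The troponin genes gave the same picture. Tnnt2, the subunit that anchors the complex to tropomyosin, read 52.3 on LZ22, 53.2 on LZ24 and 506.2 to 3275 on the remaining 5 arrays at 42 weeks, against 503.2 to 1235 at 24 to 26 weeks. Tnni3, the inhibitory subunit of the heart, read 28.1 and 52.4 on these 2 arrays and 716.8 to 3750.5 on the remaining 5 at 42 weeks, against 660.1 to 1476 at 24 to 26 weeks. Tnnc1, the calcium-binding subunit, which slow skeletal muscle shares, read 51.2 and 69.9 there and 478.8 to 3356 on the remaining 5 at 42 weeks, against 658.3 to 1381 at 24 to 26 weeks. For all 3 genes the readings on LZ22 and LZ24 were dim, so the folds are bounds. The lowest of the other 10 arrays was at least 4.66-fold brighter for Tnnt2, 6.11-fold for Tnni3 and 4.43-fold for Tnnc1.

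Actc1, the cardiac alpha actin, kept a high reading on these arrays. Its brighter probe set read 1406 on LZ22, 1354 on LZ24 and 2029.7 to 9971 on the remaining 5 arrays at 42 weeks, against 2962 to 4947 at 24 to 26 weeks. The suffix of that probe set (_f_at) marks sequence shared within a gene family, and actins of other muscle and of non-muscle cells are nearly identical in sequence, so part of the reading may be theirs; this was not tested. The other Actc1 probe set read 248.4 and 293.8 on LZ22 and LZ24 and 564.4 to 4552 on the other arrays at 42 weeks, against 1099.8 to 1783 at 24 to 26 weeks. On it, LZ22 lay at -2.64 and LZ24 at -2.40 (log2) relative to its own median over the 12 arrays, against -1.21 and -1.26 on the brighter one.

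Nppa, the precursor of atrial natriuretic peptide, did not share the near absence in the sense that it was not dim on LZ22 or LZ24. It read 267.6 on LZ22, 515.6 on LZ23, 177.2 on LZ24, 701.3 on LZ25, 1032 on LZ61, 301.8 on LZ62 and 1271 on LZ63 at 42 weeks. At 24 to 26 weeks it read 335.1 on AJ1, 222.5 on AJ2, 324.1 on AJ4, 151.7 on LZ2 and 721.2 on LZ3. The array with the lowest Nppa reading was therefore LZ2 and not LZ22 or LZ24, while its highest readings, on LZ63 and LZ61, were on the arrays where Myl7 was highest too. Among the arrays at 42 weeks, however, LZ24 (177.2) and LZ22 (267.6) were still the lowest for Nppa, followed by LZ62 (301.8). Each probe set has its own brightness, and how much of these readings came from Nppa transcript was not tested.

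Ryr2, the calcium release channel of the cardiac sarcoplasmic reticulum, and Sln (sarcolipin), an inhibitor of the calcium pump that is enriched in the atria of mice, had a mean under the level of 108 and were not tested. Ryr2 read 26.7 on LZ22, 21.1 on LZ24 and 57.3 to 362.7 on the remaining 5 arrays at 42 weeks, against 38.3 to 84.0 at 24 to 26 weeks. It exceeded 108 on LZ23, LZ61 and LZ63 alone, with LZ63 highest, and its dim readings have no order. Sln read 49.9 to 127.7 at 42 weeks and 20.9 to 88.5 at 24 to 26 weeks and exceeded 108 on LZ61 alone, so no course over the arrays can be read from it.

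**Figure D1:**
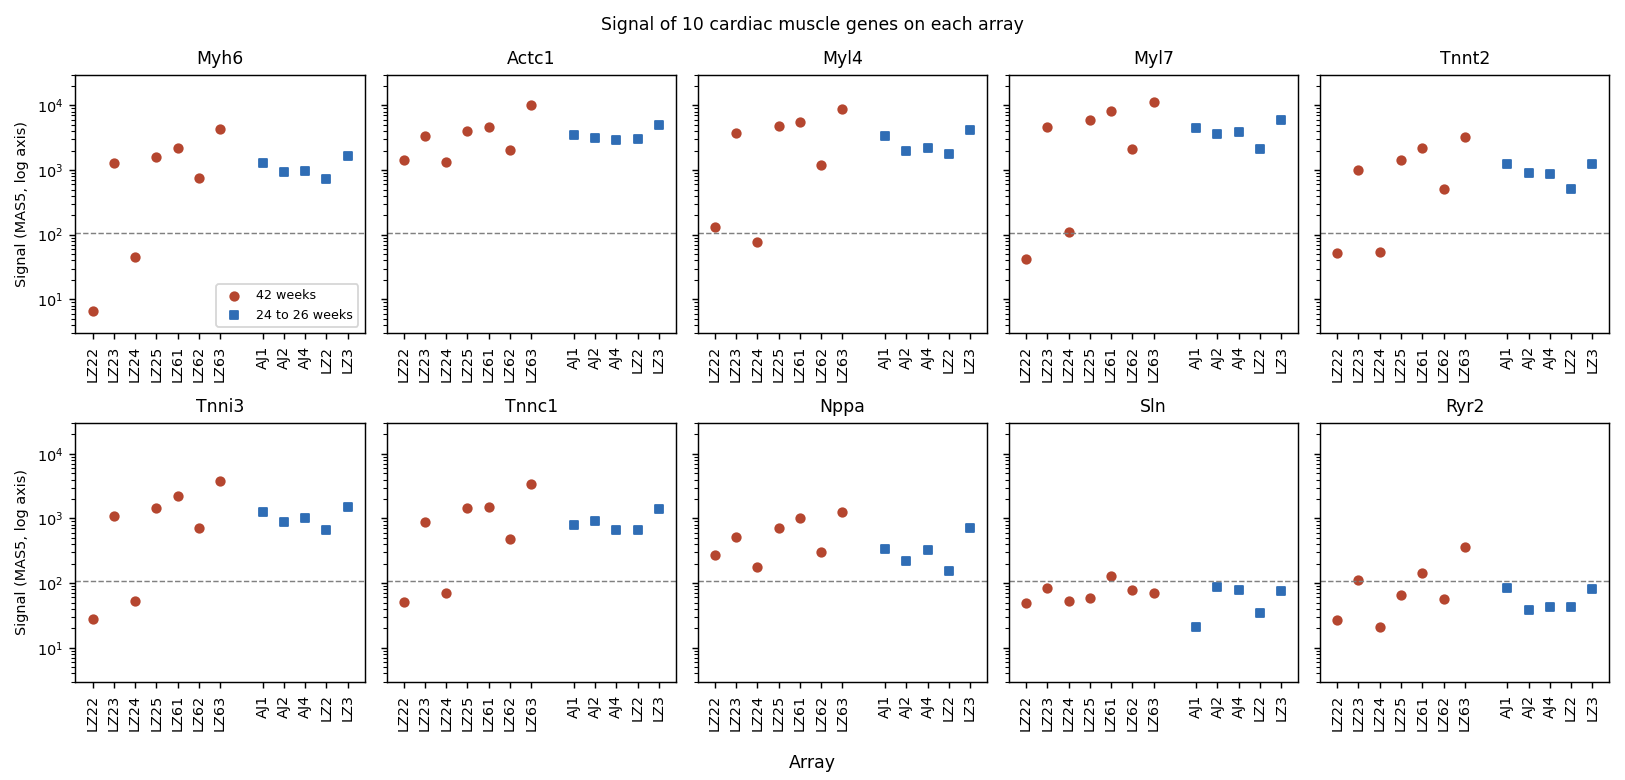
Signal (MAS5, log axis) of the brightest probe set of each of the 10 genes on each array, with arrays at 42 weeks as red circles on the left and arrays at 24 to 26 weeks as blue squares on the right; the dashed line is the level of 108 under which readings count as dim. On LZ22 and LZ24 the points of Myh6, Tnnt2, Tnni3 and Tnnc1 lie below the line, those of Actc1 and Nppa stay above it, and those of Sln lie near or below it on all arrays.

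In 7 of the 8 genes tested, all except Nppa, LZ22 and LZ24 were the 2 lowest arrays, and 1.89% of all 7453 tested probe sets had these as their 2 lowest. In all 8 LZ63 was the highest array, against 10.8% of all tested probe sets. Both are what the genes were chosen on. On LZ22 and on LZ24 7 of the 10 genes had signals under 108, Sln and Ryr2 among them, against 0 on LZ61, 1 on LZ23 and on LZ63, and 2 on each of the other 7 arrays. In all 5 arrays at 24 to 26 weeks those 2 were Sln and Ryr2. The median over the 8 tested genes of the log2 reading relative to each gene's own median over the 12 arrays, with dim readings set at 108, was -3.20 or lower on LZ22, 0.12 on LZ23, -3.20 or lower on LZ24, 0.58 on LZ25, 1.01 on LZ61, -0.74 on LZ62 and 1.82 on LZ63 at 42 weeks. At 24 to 26 weeks it was 0.16 on AJ1, -0.21 on AJ2, -0.12 on AJ4, -0.63 on LZ2 and 0.60 on LZ3. LZ62 and LZ2 thus lay lowest among the 10 arrays with a clear signal, and LZ63 and LZ61 highest. In bulk tissue, fewer muscle cells and less RNA per muscle cell cannot be told apart.

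The genes that passed the filter also varied together among the 10 arrays that had the signal. They were chosen with their readings by array known, so this likeness carries no test. As a description over these arrays, which share run days, Pearson's r between pairs of the 8 genes ran from 0.77 to 0.99 with a median of 0.93 (28 pairs). Over the 9 arrays left when LZ63 was taken out as well, it ran from 0.69 to 0.98 with a median of 0.90. The lowest of these values belong to the pair of Actc1 and Nppa. Nppa, which was not dim on LZ22 and LZ24, had an r of 0.92 with Myl7 over the 10 arrays and of 0.89 over the 9.

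The next comparison asks whether the signal was of the atrial or the ventricular kind. Myl2, the ventricular regulatory light chain and counterpart of Myl7, was dim on every array, with 6.2, 8.3 and 47.7 as its lowest, median and highest reading at 42 weeks and 3.9, 8.7 and 11.3 at 24 to 26 weeks. It read 14.3 on LZ63 and 6.5 on LZ61, where Myl7 was highest. A probe set that is dim on every array cannot show that the transcript is absent.

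Myl3, the ventricular essential light chain and counterpart of Myl4, is also made by slow skeletal muscle. It read 4.2, 35.7 and 8953 as lowest, median and highest at 42 weeks and 24.1, 51.8 and 82.8 at 24 to 26 weeks. The reading of 8953 was on LZ63, the array with the skeletal muscle genes, and all other arrays were under 108, with at most 91.7 on LZ61. The source of the LZ63 reading was not tested. On LZ61, where Myl4 read 5469, the skeletal Acta1 read 229.7. Nppb, the precursor of brain natriuretic peptide, made mainly by the ventricles, was under 108 on all arrays but LZ63, where it read 153.1. Its lowest, median and highest readings were 37.9, 53.6 and 153.1 at 42 weeks and 33.4, 48.2 and 91.3 at 24 to 26 weeks.

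Myh7, the beta myosin heavy chain of slow skeletal muscle and, in mice, of the fetal ventricle, was the only ventricular gene tested. Its brighter probe set, which also bears the family suffix, read 923.2, 1399.6 and 2037 as lowest, median and highest at 42 weeks and 1149, 1260.3 and 1435 at 24 to 26 weeks. It read 1103 on LZ22 and 923.2 on LZ24, or -0.21 and -0.46 (log2) relative to its own median, and 1399.6 on LZ63. A dimmer Myh7 probe set stayed between 15.2 and 95.1 on all arrays. The brighter one was highest on LZ62 and not on LZ63.

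**Figure D2:**
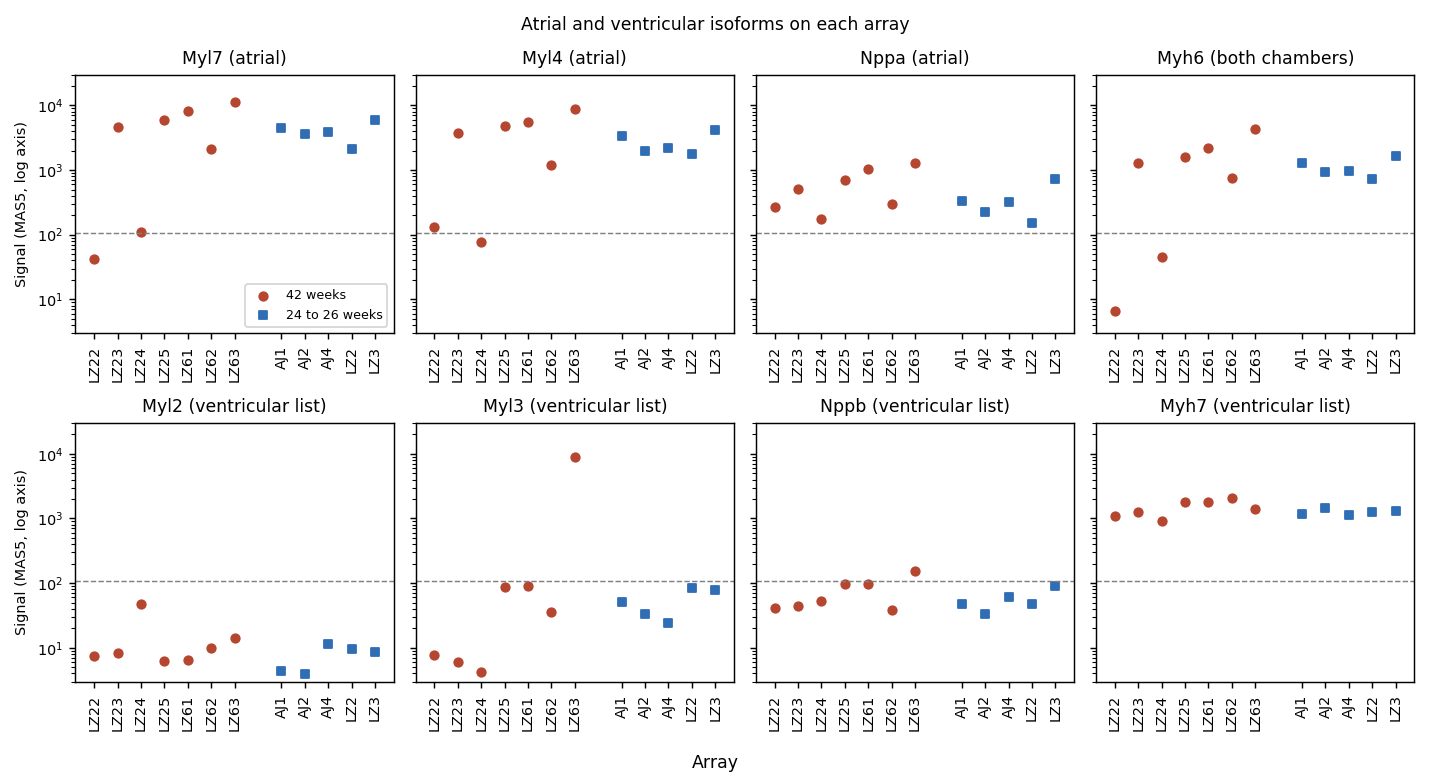
Signal (MAS5, log axis) of Myl7, Myl4, Nppa and Myh6 in the upper row and of Myl2, Myl3, Nppb and Myh7 in the lower row on each array, arrays at 42 weeks as red circles left of those at 24 to 26 weeks as blue squares; the dashed line is the level of 108. Myl7 and Myl4 dip on LZ22 and LZ24, Myl2 stays below the line on all 12 arrays, and Myl3 exceeds it on LZ63 alone with 8953.

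Of the other genes on the atrial list, Gja5, the connexin of atrial muscle that arterial endothelium also makes, read 245.8, 330.5 and 429.8 as lowest, median and highest at 42 weeks and 214.6, 253.7 and 341.3 at 24 to 26 weeks, and was not low on LZ22 (418.0) or LZ24 (328.2). Bmp10, a growth factor of the atria, and the potassium channel genes Kcnj3 and Kcnj5 were dim on all arrays, at most 57.5. Kcna5, another potassium channel, reached at most 107.1, on LZ63. These 4 genes thus give no information on the chamber.

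The comparison that the labels state is that between the time points, which asks whether the cardiac genes differed with time. None of the 10 probe sets of 8 member genes that passed the filter on dim signals passed the test between 42 weeks and 24 to 26 weeks: 0 were called at 5% false discovery (limma), against 6 of all 7453 tested probe sets, 0.0805%. An unadjusted p under 0.05 was found for 0 of the 10, against 1097 of all tested probe sets, 14.7%. The 2 groups overlapped in all 12 probe sets, against 1.5% of tested probe sets without overlap. Myl7 averaged 4586 ± 4152 (SD, n = 7) at 42 weeks and 4001 ± 1365 (SD, n = 5) at 24 to 26 weeks, with a log2 difference of -1.27, a 95% interval of -4.47 to 1.94 and a limma adjusted p of 0.731. Its mean signal is higher at 42 weeks whereas its mean log2 value is lower, because the dim readings weigh more on the log scale. Myh6 averaged 1466 ± 1499.8 at 42 weeks and 1115 ± 373 at 24 to 26 weeks, with a log2 difference of -1.21 and an interval of -4.62 to 2.20 (limma adjusted p = 0.762). With a pseudocount of 28.7, which lessens the weight of dim readings, its difference was -0.78 (adjusted p = 0.805).

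Over the 8 genes the log2 differences ran from -1.27 for Myl7 to 0.68 for Nppa, with a median of -0.79, against a median of -0.04 over all tested probe sets. Of these, 7 were negative and 1, Nppa, was positive (609 ± 415 at 42 weeks and 351 ± 220.4 at 24 to 26 weeks, limma adjusted p = 0.589). Their standard errors ran from 0.46 to 1.54, against a median of 0.15 over all tested probe sets, so that these arrays could not show differences of the size usual for other genes. The spread lay in the later group: the SD of log2 values had a median of 2.60 at 42 weeks and 0.50 at 24 to 26 weeks over the 8 genes, and of 0.25 and 0.22 over all tested probe sets. Myh6 had SDs of 3.42 and 0.47 in these groups and Nppa of 1.06 and 0.84. These SDs use dim readings as deposited, so their size at 42 weeks rests partly on readings that carry no order. The limma fit takes the same spread in both groups, so its intervals and p-values for these genes are rough.

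The sign of the difference rested on LZ22 and LZ24. Without both, the median over the 8 genes was 0.63, all 8 differences were positive, and 0 were called. Myl7 then had a difference of 0.55 (adjusted p = 0.57), Myh6 one of 0.69 (0.469) and Nppa one of 1.15 (0.299; unadjusted p = 0.0382; all limma). Leaving out LZ63 in addition gave a median of 0.32, with 0.92 for Nppa and -0.05 for Actc1. Since these arrays are taken out for their own readings, such values describe what the rest show and are no test. With run day as a random block 0 member probe sets were called, and since each day holds 1 time point, day and time point cannot be told apart within days.

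**Figure D3:**
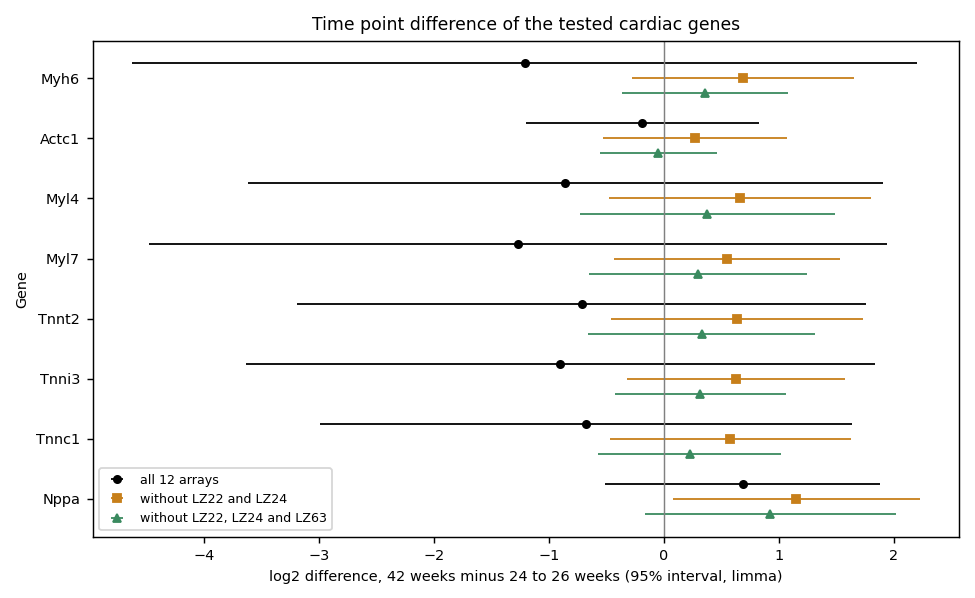
Log2 difference, 42 weeks minus 24 to 26 weeks, with its 95% interval (limma) for the 8 tested genes, using all 12 arrays (black circles), without LZ22 and LZ24 (orange squares) and without LZ22, LZ24 and LZ63 (green triangles). With all arrays every interval includes 0; without LZ22 and LZ24 all 8 points lie right of 0 and the interval of Nppa, from 0.08 to 2.23 before adjustment, excludes it.

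Other genes of heart muscle were read from lists of related genes. The sarcomere list without the 10 genes had 11 measured genes, of which 8 were tested, 0 higher, 0 lower and 8 not passed. Its array medians (log2 relative to each gene's own median) were only -0.34 on LZ22 and -0.48 on LZ24, and 1.45 on LZ63. LZ22 and LZ24 were the 2 lowest arrays in 3 of the 8 genes, namely Csrp3, Ldb3 and Tcap. This rank alone does not show near absence, since Tcap read 93.3 and 119.9 there, against at least 157.1 on the other arrays. Xirp1, not among the 3, had a median of 92.9 over the 12 arrays and was too dim to show a fall. Csrp3, a muscle LIM protein of the Z disc, read 8.5 on LZ22, 5.6 on LZ24 and 263.8 to 5497 on the remaining 5 arrays at 42 weeks, against 296.8 to 819.9 at 24 to 26 weeks. Mybpc3, the cardiac myosin-binding protein, had a much smaller range. It read 181.3 on LZ22, 157.9 on LZ24 and 174.3 to 657.7 on the remaining 5 arrays at 42 weeks, against 196.5 to 337.2 at 24 to 26 weeks. The reading of 174.3, on LZ62, was lower than that on LZ22. Tpm1, an alpha tropomyosin that many cell types make, varied little, from 3069.9 to 3526 at 42 weeks and from 2747 to 3432 at 24 to 26 weeks.

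The calcium handling list had 10 measured genes, 6 of them tested and 0 called, with array medians of 0.03 on LZ22 and -0.05 on LZ24. Atp2a2, the calcium pump of cardiac sarcoplasmic reticulum and of other cells, read 243.7 on LZ22, 222.3 on LZ24 and 697.9 to 3972 on the remaining 5 arrays at 42 weeks, against 817.6 to 1883 at 24 to 26 weeks. Slc8a1, the sodium-calcium exchanger, read 310.9 to 585.2 at 42 weeks and 448.5 to 542.6 at 24 to 26 weeks, and was not low on LZ22 (499.1) or LZ24 (507.3). Genes for cardiac transcription factors (9 tested, 0 called) had array medians between -0.09 and 0.13 at 42 weeks and between -0.10 and 0.28 at 24 to 26 weeks. Hopx and Mef2d, the brightest of them, read 1939 to 2717 and 1993 to 2660.0 at 42 weeks, against 2234 to 3288 and 2244 to 2814 at 24 to 26 weeks. Nkx2-5, the homeodomain factor of heart muscle, was dim on all arrays, at most 37.0.

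The energy supply list, enzymes and carriers that striated muscle makes in quantity, had 13 measured genes, of which 12 were tested and 0 called. Of the 12, 11 were highest on LZ63, against 10.8% of all tested probe sets. In 8 of the 12, LZ22 and LZ24 were the 2 lowest arrays, against 1.89%. With dim readings set at 108, its array medians were -0.89 or lower on LZ22, -0.86 or lower on LZ24 and 2.36 on LZ63, and between -0.62 and 0.63 on the other arrays. Its brightest genes were Acadm, an enzyme of fatty acid oxidation (1626 to 4083 at 42 weeks, against 1807 to 2915 at 24 to 26 weeks), and Cox6a2, the heart and skeletal muscle subunit of cytochrome oxidase (716.5 to 5644 at 42 weeks, against 1283 to 1466 at 24 to 26 weeks).

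By likeness to the cardiac profile (the same median over all 10 genes, with dim readings as deposited), measured as Pearson's r over the 12 arrays among 5731 genes and given as a description with no test, the nearest genes outside the 10 were Csrp3 (0.99), Ckmt2 (0.98), Atp2a2 (0.98), Pgam2 (0.97), Mb (0.93), Bpifb1 (0.91), Itgb4 (0.89), Ptgfr (0.88), Ldb3 (0.87), Usp2 (0.865), Art1 (0.86) and Fabp3 (0.86). Over all 5731 genes, r to the profile had a median of -0.06 and a 95th percentile of 0.53 over the 12 arrays. Without LZ22, LZ24 and LZ63 these were -0.05 and 0.60. The arrays fall into 2 with almost no signal and 10 with it, and r over all 12 mostly reflects that gap. Over the 10 arrays r was 0.98 for Csrp3, 0.96 for the mitochondrial creatine kinase Ckmt2, 0.97 for Atp2a2, 0.94 for the muscle phosphoglycerate mutase Pgam2, 0.93 for myoglobin (Mb) and 0.93 for Fabp3, the fatty acid binding protein of heart muscle. Spearman's rho over the same arrays was 0.98, 0.93, 0.93, 0.89, 0.95 and 0.88 for these genes. Over the 9 arrays without LZ63 as well, r was between 0.87 and 0.98 for these 6. Ldb3, a Z disc protein, had an r of 0.91 over the 10 arrays and 0.80 over the 9, and Art1, an ADP-ribosyltransferase of muscle, one of 0.87 and 0.73. It was -0.34 for Itgb4, an integrin of epithelia, -0.26 for the deubiquitinase Usp2 and 0.41 for the prostaglandin receptor Ptgfr, so that the likeness of Itgb4 and Usp2 rests on LZ22, LZ24 and LZ63. That of Ptgfr rests on LZ22 and LZ24, since its r was already 0.47 over the 10 arrays.

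Bpifb1, which encodes a secreted protein of the larger airways, had an r of 0.76 over the 10 arrays and of 0.76 over the 9. It read 58.3 on LZ22 and 91.3 on LZ24, 220.5 on LZ62 and 3220 to 5831 on the other arrays at 42 weeks, against 377.3 on AJ2 and 1534 to 3068 on the others at 24 to 26 weeks. It was thus low on the same 2 arrays as the cardiac genes, and then on LZ62 and AJ2. Scgb1a1, the secretoglobin of club cells, which line smaller airways too, was not low on LZ22 (24999.9) or LZ24 (27978).

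Markers of other tissues moved with the cardiac signal on some arrays, and their part in it was not tested. Adipoq, made by fat cells, read 28.3 on LZ22, 309.6 on LZ23, 29.1 on LZ24, 685.4 on LZ25, 1648 on LZ61, 39.6 on LZ62 and 1384 on LZ63 at 42 weeks, and 208.1 on AJ1, 49.0 on AJ2, 202.5 on AJ4, 151.8 on LZ2 and 557.9 on LZ3 at 24 to 26 weeks. It was dim not only on LZ22 and LZ24 but also on LZ62 and AJ2, which had a clear Myl7 signal (2119 and 3624). Of the adipose list 9 genes were measured, 4 were tested and 0 called. Lep (leptin), the brightest of its genes, read 316.6 to 729.4 at 42 weeks and 300.5 to 731.2 at 24 to 26 weeks, and its summed signal ran from 882 to 5325 at 42 weeks and from 873 to 2510.2 at 24 to 26 weeks. Smooth muscle genes (9 of 9 tested, 0 called) had array medians of -0.52 on LZ22, -0.32 on LZ24 and 1.51 on LZ63, with summed signals of 10693 to 28470.5 at 42 weeks and 11353 to 14751 at 24 to 26 weeks. In 4 of the 9, LZ22 and LZ24 were the 2 lowest arrays, against 1.89% of all tested probe sets. Acta2, the smooth muscle actin of vessels and airways, read 1759 on LZ22 and 1736 on LZ24, and LZ62, AJ2 and AJ4, which had a clear Myl7 signal, read 1714, 1729.5 and 1714. Mylk, the myosin kinase of smooth muscle, read 4054 to 5274 at 42 weeks and 4177 to 5883 at 24 to 26 weeks.

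Skeletal muscle genes (20 measured, 9 tested, 0 called) had summed signals of 1992 to 81898 at 42 weeks and 2161 to 3046 at 24 to 26 weeks, the highest being LZ63 with an array median of 4.52. Acta1 read 41.8 times its highest reading elsewhere there, while Myl7, Myh6 and Tnni3 read 1.37, 1.96 and 1.66 times theirs, and Tnnc1, which slow skeletal muscle shares, 2.23 times. Of other genes that heart and skeletal muscle share, Mb read 14.5 times and Fabp3 1.81 times its highest reading elsewhere. On LZ61, the array with the next highest Myl7 reading, Acta1 read 229.7 and Myl1, a fast skeletal light chain, 197.9. Both were also dim on the arrays that nearly lacked the cardiac signal. Acta1 read 8.6 on LZ22 and 13.2 on LZ24, and Myl1 read 17.6 and 12.8. The median of the other 10 arrays was at least 2.11-fold brighter for Acta1 and 1.68-fold for Myl1. LZ22 and LZ24 were the 2 lowest arrays in 3 of the 9 tested skeletal muscle genes.

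Squamous epithelium (9 measured, 3 tested, 0 called) had array medians between -0.17 and 0.21 at 42 weeks apart from LZ63, where it was 5.07, and between -0.34 and 0.07 at 24 to 26 weeks. Besides Krt4, Lor (loricrin) read 12579 on LZ63, with a median of 390.2 at 42 weeks and 332.2 at 24 to 26 weeks. Cartilage (8 measured, 2 tested, 0 called) lay at -0.50 or lower on LZ22 and 0.29 on LZ24, and its brightest genes Chad and Col9a1 had medians of 280.6 and 124.6 at 42 weeks and 198.8 and 146.2 at 24 to 26 weeks. Red blood cell genes (3 measured and tested, 0 called) lay at -0.14 on LZ22 and 2.67 on LZ24, where Alas2, the heme synthesis enzyme of red cells, read 15210.1, so the 2 arrays that nearly lacked the cardiac signal differed there. The globin Hba-a1 read 24667 to 38332 at 42 weeks and 17628 to 28197 at 24 to 26 weeks. Mesothelium and epicardium (4 tested, 0 called) lay at 0.12 and 0.10, and large vein and endocardium (4 tested, 0 called) at -0.06 and -0.17 on these arrays. Krt19 and Tcf21 of the first list had medians of 3046 and 2842 at 42 weeks and 2502 and 3243 at 24 to 26 weeks, and Vwf and Npr3 of the other had medians of 1489 and 639.2 at 42 weeks and 1567 and 980.7 at 24 to 26 weeks. The alveolar and airway list (6 tested, 0 called) lay at 0.03 and 0.12, and Sftpc, the surfactant protein of alveolar type 2 cells, read 29248 on LZ22 and 33757 on LZ24, within the range of the other arrays at 42 weeks (29121 to 40558) and of those at 24 to 26 weeks (18314 to 39943).

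**Figure D4:**
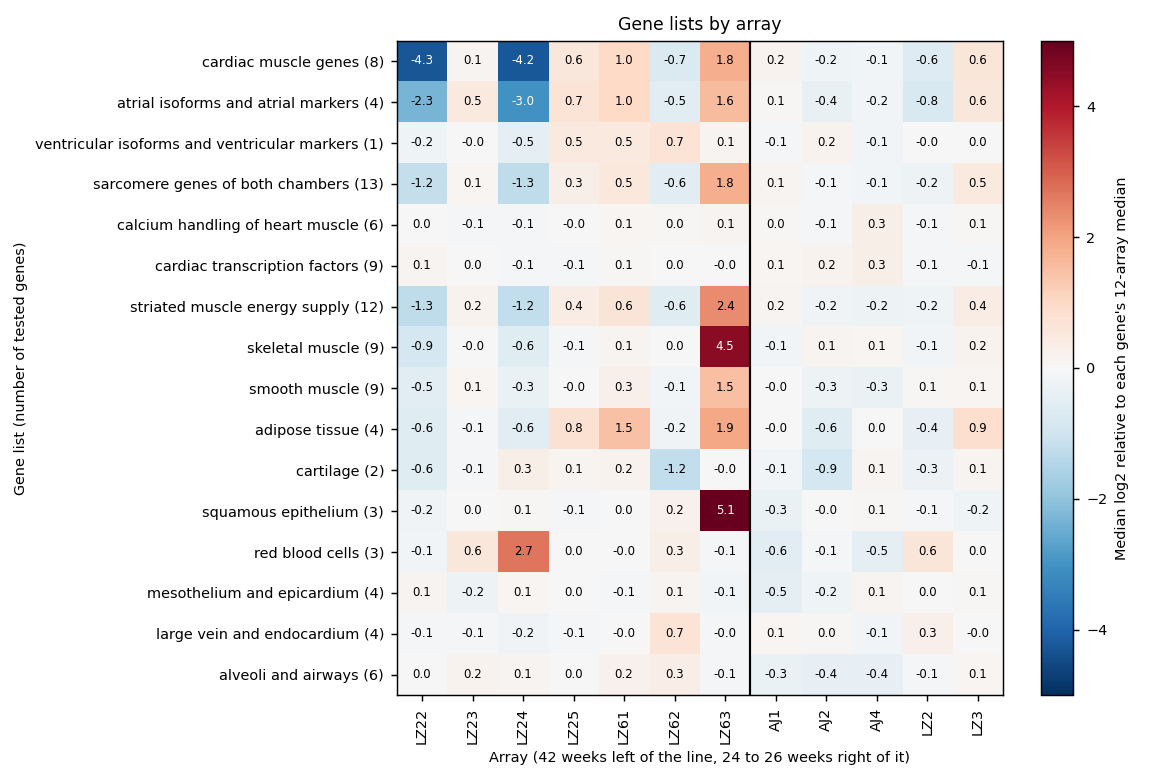
Median log2 signal relative to each gene's own median over the 12 arrays (colour and printed value) for the 10 cardiac genes and 15 gene lists (rows, with the number of tested genes) on each array (columns, 42 weeks left of the line and 24 to 26 weeks right of it). Dim readings are plotted as deposited. The cardiac row is darkest blue on LZ22 and LZ24, where 5 of the 8 tested genes were dim and -3.20 or lower is all that can be read, while skeletal muscle (4.52) and squamous epithelium (5.07) are darkest red on LZ63.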

How the data were processed

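The deposited values for the 12 lung RNA samples are linear intensity signals that the authors computed with MAS5, per the submitters' processing notes. The version and scaling target of MAS5 were not given in the sources used here. On all arrays the 2% trimmed mean of the signal was equal to within 0.009%, and no further scaling was applied. MAS5 subtracts mismatch signals, which makes dim values noisy, and detection calls were not used here. Control probe sets (66 of 12488) were removed, which left 12422; 10833 of these have 1 symbol in the platform annotation, 396 several and 1193 are unnamed here. Values were log2-transformed with no pseudocount, and a probe set was tested if its log2 mean exceeded the 40th percentile (a signal of 108), which left 7453. Sln and Ryr2 were among those left out.

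The difference between time points was fitted in limma 3.58.1 (R 4.3.3, statmod 1.5.0, eBayes with trend and robust, two-sided, Benjamini-Hochberg over all tested probe sets, 5% false discovery). The fit was tried on simulated data that had the same spread in both groups. Such data do not cover the cardiac genes, whose spread differed between the groups. For a gene with several probe sets the one with the highest mean stands for it. The number of arrays limits the precision. Run days came from the deposited run records. Folds to an array under 108 are lower bounds set at 108. The members and lists were chosen with earlier results of these arrays known. The text names all members, all measured atrial and ventricular genes, the called members and the 2 brightest genes of other lists, and the 12 nearest genes by likeness; Nkx2-5 and Mybpc3 were named after their values were seen. Protein sequences were not used here.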

Additional observations from a re-analysis of the deposited data

How the results depend on the processing

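No member probe set was called in any of 23 alternatives, and the lowest adjusted p of a member gene in any of them was 0.299. The count of all called probe sets, 6, was 17 after quantile normalization, 550 with array weights, 1 with run day as a random block, 1 without LZ22 and LZ24 and 1 without LZ22, LZ24 and LZ63; it ran from 4 to 38 when each array was left out in turn (38 without LZ2, 30 without LZ3, 16 without LZ62, 15 without LZ63). The cause was not tested. The median log2 difference of the member genes (-0.79) was 0.63 without LZ22 and LZ24 and 0.32 without LZ63 as well, and ran from -1.22 to -0.17 when single arrays were left out. Without LZ22 and LZ24 the difference was 0.69 for Myh6, 0.27 for Actc1, 0.66 for Myl4, 0.55 for Myl7, 0.64 for Tnnt2, 0.63 for Tnni3 and 0.58 for Tnnc1. Without LZ63 as well it was 0.35 for Myh6, 0.38 for Myl4, 0.30 for Myl7, 0.33 for Tnnt2, 0.32 for Tnni3 and 0.22 for Tnnc1. Actc1 ran from -0.47 to 0.007 when single arrays were left out, being positive without LZ24. The r to the cardiac profile was -0.34 for Itgb4 and -0.26 for Usp2 without LZ22, LZ24 and LZ63, a setting chosen after seeing the data. On both LZ22 and LZ24, 7 member genes lay under the filter level after quantile normalization and with equal medians too. Nppa kept a positive difference in all alternatives (0.43 to 1.15). Readings near or under 108 carry no order between arrays. No paired analysis was possible because the labels give no replicate numbers shared by the 2 time points.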
